A study of Homo sapiens with 32 samples.

Results

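ATP-citrate lyase (ACLY) knockout cells (KO) were compared with cells that express the phosphorylation-deficient ACLY mutant S455A (SA), both without stimulation, as a comparison for ACLY loss that uses no library of the wild type line. Every gene with a mean normalised read count of at least 10 over the 8 libraries of these groups was included, which kept 12375 of 60107 genes. The study sequenced 32 libraries of THP-1 (a cell line from a human monocytic leukaemia) in 8 groups of 4: KO cells and cells with wild type (WT), catalytically inactive H760A (HA) or S455A ACLY, each unstimulated or after LPS, a molecule of the bacterial outer membrane sensed by TLR4, at 100 ng/ml for 3 hours. The WT, HA and SA lines were all derived from the knockout cells by lentiviral transduction with the ACLY coding sequence under an EF promoter and puromycin selection, so the ACLY gene edit is present in every line. Whether the KO cells were transduced and selected as well is not given in the sources used here. Each genotype is a single line in the labels, and its 4 libraries are repeats of that line. The p-values of the gene calls measure only the spread between repeat libraries, pooled over the 8 groups of all 32 libraries. Other differences between the 2 lines cannot be told apart from the genotype. Libraries were made with a QuantSeq 3′ kit, which reads the 3′ end of a transcript.

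ACLY cleaves citrate in the cytosol to acetyl-CoA, which feeds fatty acid and sterol synthesis and the acetylation of histones and other proteins. Myeloid cells recognise foreign or misplaced nucleic acids through sensors such as RIG-I, MDA5, AIM2 and TLR7. Interferons signal through JAK kinases and transcription factors such as STAT2 and IRF9 to switch on antiviral effector genes. CIITA is the master activator of the MHC class II genes, whose products present peptides to helper T cells and which interferon gamma induces in macrophages.

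The libraries held 7346395 to 10505540 reads on genes in KO and 10788639 to 14724448 in SA. KO 3 correlated at r = 0.907 across genes with the median of the other KO libraries, against at least 0.976 for KO 1, KO 2 and KO 4, and SA 1 and SA 3 at 0.959 and 0.965 against 0.979 and 0.978 for SA 2 and SA 4. Among the libraries of the shared fit, SA_LPS 1 stood farthest from its group, at 0.804. The deposited tables were scaled line by line, which moved KO against SA by -0.36 on the log2 scale, so all values given here are reads recovered from the tables and divided by factors computed jointly over the 32 libraries. A gene was called when limma gave an adjusted p below 0.01, and log2 fold changes are KO minus SA on the log2(normalised count + 1) scale, which understates the change of low genes. In bulk RNA, fewer cells of a kind and less RNA per cell cannot be told apart.

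ACLY itself (chromosome 17, 41866917 to 41930542, minus strand, GRCh38) was at 97.5, 107, 82.3 and 67.2 in the KO libraries and 162, 158, 149 and 102 in the SA libraries. The groups overlapped, since SA 4 was below KO 2. The knockout did not remove the reads, and ACLY was not called (log2 fold change -0.68 ± 0.28 (SE), adjusted p = 0.202, n = 4 and 4). An exact two-sided permutation test on the same values gave p = 0.0571, where the smallest possible value is 0.0286. ACLY averaged 102 ± 11.4 (SD, n = 4) in WT and 96.7 ± 28.9 in HA. A 3′ read can come from transcripts of the edited gene, and the constructs hold the coding sequence, so this count does not check the genotype labels.

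Of the 12375 genes, 362 were called (2.93%), 205 higher in KO (1.66%) and 157 lower (1.27%), and the libraries of the groups did not overlap for 355 of them, while 11.0% of all genes tested had non-overlapping libraries. The rises had a median log2 fold change of 1.39 and the falls of -1.23, and 51 genes rose and 18 fell by at least 2 on the log2 scale. Without KO 1 the count was 229 (127 higher and 102 lower), and the lower genes were 104 without KO 2 and 104 without SA 1. A fit of the 8 libraries alone called 139 (84 higher and 55 lower). Leaving out KO 3 and SA 1 together called 226 (129 higher and 97 lower). Leaving out SA_LPS 1, which is in neither group but enters the pooled spread, called 510. On the deposited scale 1135 genes were called and the share of higher genes went from 56.6% to 9.43%, with the median of all genes at -0.36 against -0.01 on the joint scale. All 205 higher genes stayed positive on the deposited scale and 107 of them stayed called, and all 157 lower genes stayed called lower.

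**Figure D1:**
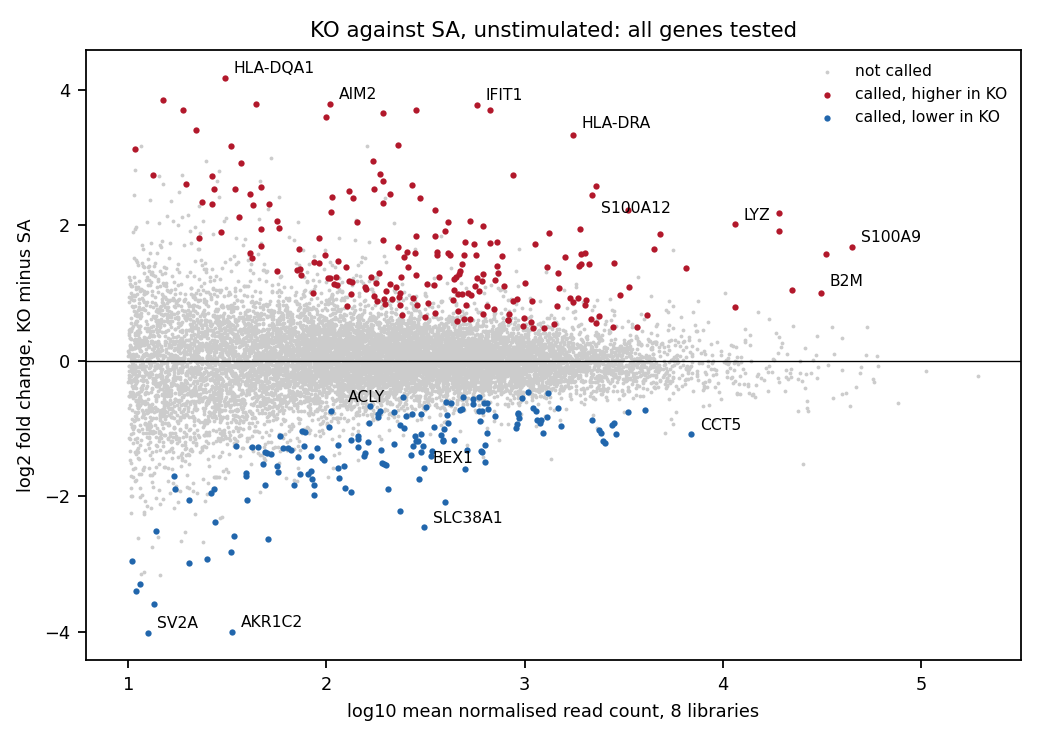
Log2 fold change (KO minus SA, unstimulated) against the log10 mean normalised read count of the 8 libraries, one point per gene tested. Genes not reported here were not drawn. Red points are genes called higher in KO and blue points genes called lower, and the largest called changes lie near 4 in either direction, with HLA-DQA1 at 4.17 and SV2A at -4.01.

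MHC class II genes rose together in KO, with 10 of 17 tested members called higher, 0 lower and a median log2 fold change of 1.64, against -0.01 over all genes tested. This count and those of the lists below stand against 1.66% of all genes tested called higher and 1.27% called lower. HLA-DRA, the alpha chain shared by all HLA-DR molecules (chromosome 6, 32439878 to 32445046, plus strand), was at 3216, 3752, 2237 and 3546 in the KO libraries and 204, 393, 302 and 382 in the SA libraries. Every KO library was above every SA library (log2 fold change 3.33 ± 0.30 (SE), adjusted p = 6.38e-09). HLA-DPA1, the alpha chain of HLA-DP (chromosome 6, 33064569 to 33080775, minus strand), was at 471, 499, 649 and 493 in the KO libraries and 29.4, 50.9, 47.7 and 33.9 in the SA libraries, again without overlap (log2 fold change 3.70 ± 0.20 (SE), adjusted p = 2.49e-13). Its partner beta chain HLA-DPB1 was at 332, 353, 362 and 380.0 in the KO libraries and 15.6, 27.7, 44.4 and 28.3 in the SA libraries (log2 fold change 3.66 ± 0.25 (SE), adjusted p = 4.29e-11). For each of these 3 genes the lowest KO library was several times the highest SA library. HLA-DQA1 was at most a few counts in SA, at 0, 4.46, 3.29 and 3.77, and at 59.0, 76.3, 48.6 and 50.6 in KO (log2 fold change 4.17 ± 0.69 (SE), adjusted p = 0.0002). The activator CIITA was at 96.2, 64.6, 116 and 46.9 in the KO libraries and 14.4, 10.7, 9.86 and 14.1 in the SA libraries, a low count in every SA library (log2 fold change 2.56 ± 0.43 (SE), adjusted p = 0.000235). The invariant chain CD74, which guides class II molecules to the endosome, and the peptide exchange chains HLA-DMB and HLA-DMA rose by 1.64, 3.17 and 1.26 on the log2 scale. HLA-DRB1 and HLA-DRB5 were called at 1.37 and 1.56, and because they are near-identical copies the division of reads between them is uncertain. HLA-DQB1 had non-overlapping libraries and was not called (log2 fold change 1.64, adjusted p = 0.0381), while the fit of the 8 libraries alone called it (adjusted p = 0.00455). Leaving out single libraries kept 8 to 10 of the members called, and HLA-DMA and HLA-DRB1 lost the call in some of these fits (adjusted p up to 0.0198 without KO 1 and 0.0398 without SA 3).

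**Figure D2:**
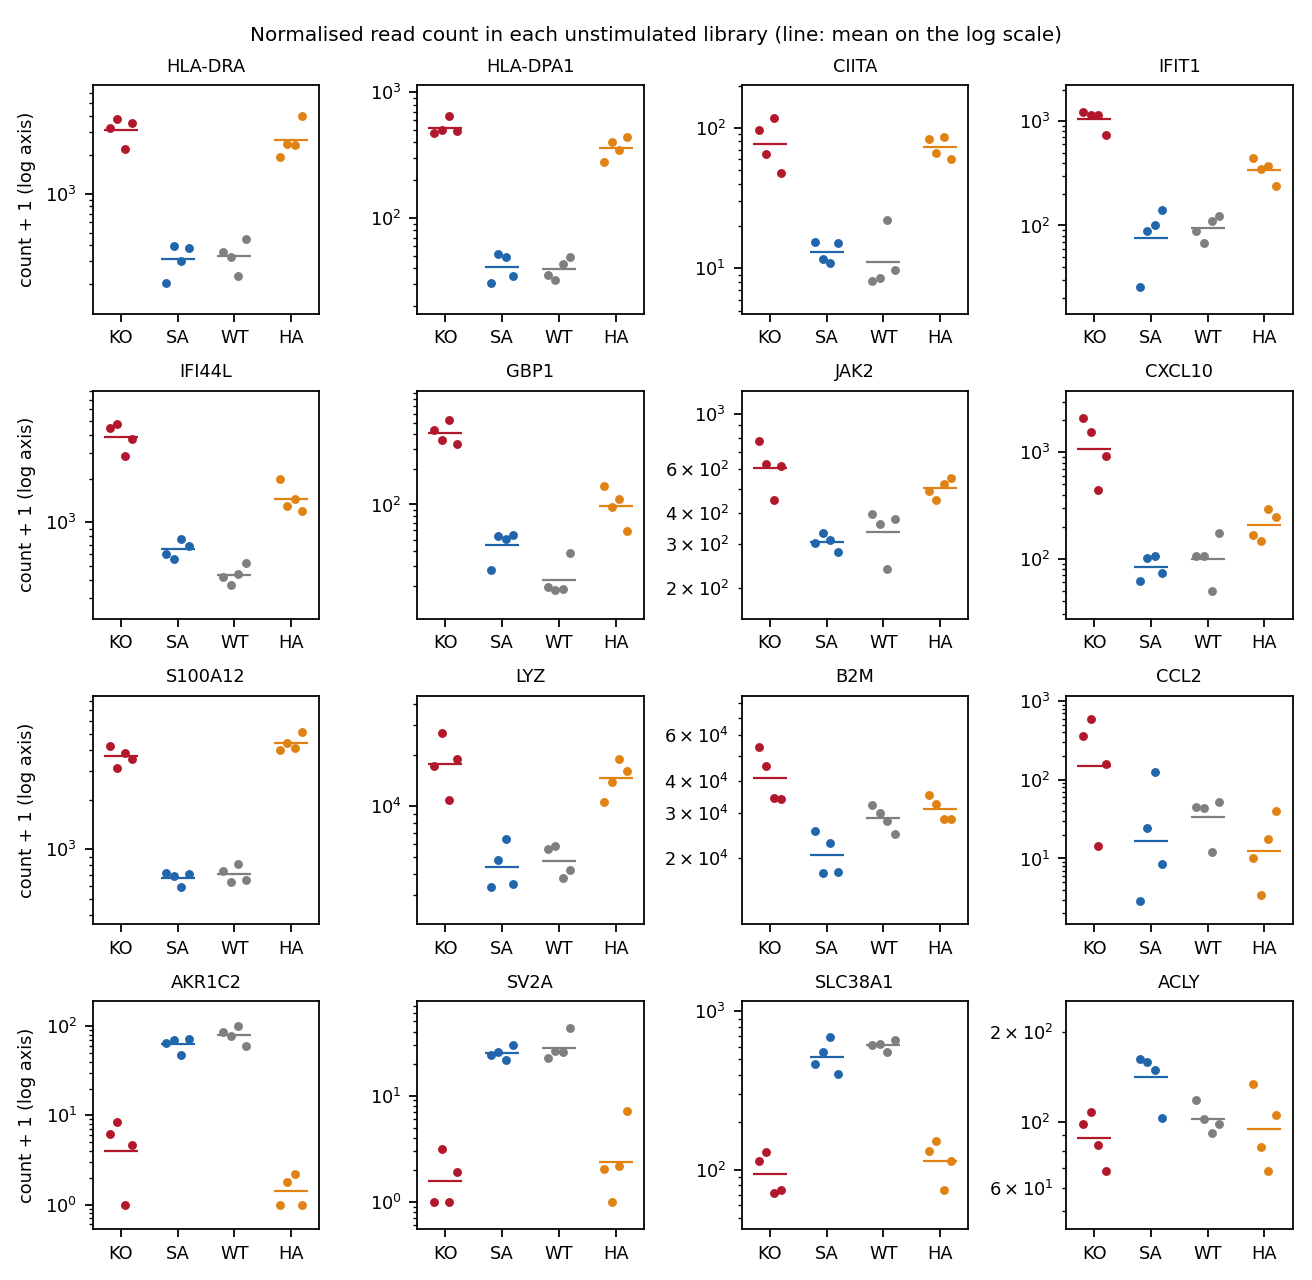
Normalised read count plus 1 (log axis) of 16 genes in each unstimulated library of KO, SA, WT and HA, with a line at the mean on the log scale (n = 4 per group). For HLA-DRA, HLA-DPA1, S100A12 and SLC38A1 the KO and HA libraries lie on 1 side and the SA and WT libraries on the other, while the groups overlap for CCL2 and ACLY.

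Interferon-stimulated antiviral genes, the longest of the lists, had 38 of 63 tested members called higher in KO, against 1.66% of all genes tested. None was called lower, 62 had a positive log2 fold change and the median was 1.43. IFIT1, which binds viral RNA that lacks the cap methylation of host mRNA (chromosome 10, 89392546 to 89406487, plus strand), was at 1209, 1141, 1145 and 739.7 in the KO libraries and 25.0, 87.5, 100.3 and 140.5 in the SA libraries. It rose 13.7-fold on the fitted scale (log2 fold change 3.78 ± 0.32 (SE), adjusted p = 3.72e-09). IFI44L was at 4433, 4753, 2847 and 3767 in the KO libraries and 598, 558, 763 and 685 in the SA libraries (log2 fold change 2.58 ± 0.20 (SE), adjusted p = 1.11e-09). The groups did not overlap for either gene, nor for RSAD2, which encodes viperin, an enzyme that makes a chain-terminating nucleotide, at 627, 588, 285 and 354 in the KO libraries and 45.0, 82.1, 92.1 and 79.2 in the SA libraries (log2 fold change 2.59 ± 0.34 (SE), adjusted p = 5.88e-06). The related IFIT2 and IFIT3 rose by 2.45 and 2.73, the antiviral TRIM22 by 2.76, and TNFSF10, the death ligand TRAIL, by 2.05. The 2′-5′-oligoadenylate synthetases OAS1, OAS2, OAS3 and OASL, of which all but OASL make the signal that activates RNase L, rose by 2.07, 1.95, 1.52 and 2.50. MX1 and MX2, dynamin-like GTPases that block viruses, rose by 1.87 and 1.74, and the ubiquitin-like ISG15 by 2.22. EPSTI1 was at 939, 1279, 915 and 798 in the KO libraries and 211, 225, 328 and 227 in the SA libraries, and rose by 1.98. The count of called members lay between 33 and 36 when single libraries were left out, and at 32 in the fit of the 8 libraries alone and at 32 without KO 3 and SA 1 together. IFI44 was called at 1.39 and lost the call in 5 of the 8 fits without 1 library (adjusted p up to 0.0276 without KO 2).

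Because these genes rose together, their promoters were searched for the core of the interferon-stimulated response element, GAAANNGAAA on either strand, in RefSeq promoter windows of GRCh38.p14 from 250 bases before to 50 bases after a RefSeq start, 1 window per gene. The core was present in 29 of the 46 tested antiviral members with a window (63.0%), in 33 of 157 genes called higher (21.0%), in 3 of 126 called lower (2.38%), in 2.85% of the 9159 tested genes with a window and in 3.65% of all 27305 windows. The antiviral list was chosen as interferon-stimulated genes, and its called members are also among the genes called higher, so the first 2 shares are not independent results. Of 13 tested class II members with a window 0 held this core. The stretches below are examples, 1 match each, from 6 called genes whose values are given in the text (IFIT1, IFIT3 and IFI44L have 2 matches in the window), in the direction of the gene with the core or its reverse complement in capitals and 9 bases on each side:
IFIT1: actttccccTTTCGGTTTCcctaggttt
IFIT3: ttaaattagTTTCACTTTCcagtttcct
GBP1: acgaagtacTTTCAGTTTCatattactc
IFI44L: cctagtgagGAAAAAGAAAgttagtggc
CXCL10: catgttttgGAAAGTGAAAcctaattca
AIM2: ctaggccacTTTCTGTTTCcaatcagtg

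They lie at chr10:89392511-89392538 (plus strand), chr10:89327866-89327893 (plus), chr1:89065317-89065344 (minus), chr1:78620366-78620393 (plus), chr4:76023700-76023727 (minus) and chr1:159076938-159076965 (minus), which puts the first base of the core 103, 122, 127, 73, 221 and 190 bases before the RefSeq start of its window, which need not be the gene boundary given with the counts. The window of RSAD2 held no match to these letters, and TRIM22 and HLA-DRA had no entry in the table used. The shorter GAS core of interferon gamma-activated promoters, TTCNNNGAA, was in 10.2% of the windows of genes called higher, 7.94% of those called lower and 6.34% of those tested, and a window can hold both cores. The Y box core of class II promoters, CTGATTGG, was in 5 of 13 tested class II members with a window (38.5%), in 7 of 20 tested sterol synthesis members (35.0%), of which none was called, and in 5.73% of the tested genes. No match to it was in the windows of HLA-DPA1, HLA-DPB1, HLA-DQA1, CD74 and HLA-DMB, and the window of HLA-DRB1, at chr6:32589881-32589906 on the minus strand, shows it in capitals:
HLA-DRB1: actcagatgCTGATTGGttctccaac

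Of 19 tested nucleic acid sensing genes 5 were called higher and 0 lower (median 0.57), and all called members were sensors. AIM2, which binds cytosolic DNA and assembles an inflammasome, was at 222, 181, 220.0 and 151 in the KO libraries and 24.4, 8.04, 9.04 and 15.1 in the SA libraries (log2 fold change 3.79 ± 0.41 (SE), adjusted p = 3.59e-07). The RNA sensors RIG-I, listed under its older symbol DDX58, and MDA5 (IFIH1) rose by 1.60 and 1.29, the DNA sensor IFI16 by 1.59 and the endosomal RNA receptor TLR7 by 1.94. Of the adaptors, STING, listed as TMEM173, and MAVS were not called, at 0.14 and -0.14. The calls of these 5 sensors held without any single library.

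In the interferon signalling list 4 of 21 tested members were called higher and 0 lower, with a median of 0.20 that was -0.15 on the deposited scale. JAK2, a receptor kinase, was at 777, 624, 447 and 617 in the KO libraries and 300.1, 331, 309.9 and 278 in the SA libraries, without overlap (log2 fold change 0.99 ± 0.17 (SE), adjusted p = 0.00023). The transcription factor STAT2 rose by 1.27, while IRF9 was at -0.28 and IRF1 at 0.63, neither called (adjusted p = 0.907 and 0.0271, limma). IRF7, the regulator of type I interferon genes, was at 855, 909.7, 194 and 614 in the KO libraries and 84.4, 138, 233 and 164 in the SA libraries, so that KO 3 lay inside the range of SA although the gene was called (log2 fold change 1.92 ± 0.42 (SE), adjusted p = 0.00392). STAT2 and IRF7 lost their calls in some fits without 1 library (adjusted p up to 0.0198 without SA 3 and 0.026 without SA 1), and the count was 2 without KO 1, KO 2, SA 1 or SA 2. The receptor chains IFNAR1, IFNAR2 and IFNGR1 were at log2 fold changes of -0.14, 0.20 and 1.22, and JAK1 at -0.15, none of them called. None of the 4 interferon genes of the list reached the count needed for testing.

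Guanylate-binding proteins, interferon-induced GTPases that act on vacuoles of intracellular pathogens, had 4 of 5 tested members higher (median 1.17). GBP1 (chromosome 1, 89051882 to 89065360, minus strand) was at 432, 359, 533 and 328 in the KO libraries and 26.3, 52.7, 49.3 and 53.7 in the SA libraries (log2 fold change 3.18 ± 0.30 (SE), adjusted p = 1.86e-08). GBP2, GBP4 and GBP5 rose by 1.10, 1.17 and 1.44, and leaving out KO 1, KO 2, SA 1 or SA 2 left 2 members called, since GBP4 and GBP5 lost the call (adjusted p up to 0.0364 without SA 1 and 0.0448 without SA 1). Of the MHC class I genes, 6 of 21 were called higher and none lower (median 0.49): HLA-E, HLA-F, B2M, TAP1, PSMB9 and PSME1. HLA-F lost the call in all 8 fits without 1 library (adjusted p up to 0.0628 without KO 2). TAP1, PSMB9 and PSME1 lost it in 4, 6 and 5 of these fits. B2M, the light chain of class I molecules and the reference gene of the study's Q-PCR, was at 54013, 45569, 34232 and 33779 in the KO libraries and 25522, 17498, 22886 and 17578 in the SA libraries, with every KO library above every SA library (log2 fold change 1.00 ± 0.21 (SE), adjusted p = 0.00236). Its means were 28650.5 ± 3077 in WT and 31008 ± 3298 in HA (SD, n = 4 each), and HA minus WT was 0.11 (adjusted p = 0.745). The B2M call was lost without KO 1, KO 2, SA 2 or SA 4 (adjusted p up to 0.0176 without KO 1) and in the fit of the 8 libraries alone (adjusted p = 0.0396). The class I list had 1 called member without KO 1, 2 without KO 2 or SA 2, 3 without KO 4, SA 1, SA 3 or SA 4, and 4 without KO 3, and 1 in the fit of the 8 libraries alone.

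Among cytokines and chemokines, 6 of 20 tested members were called higher and 0 lower, with a median of 0.58. CXCL10, an interferon-induced attractant of T cells, was at 2109, 1557, 441 and 927 in the KO libraries and 60.0, 100.0, 106 and 71.7 in the SA libraries (log2 fold change 3.70 ± 0.43 (SE), adjusted p = 1.24e-06). IL1B, the inflammasome cytokine, was at 155, 307, 117 and 114 in the KO libraries and 21.3, 37.5, 60.0 and 27.3 in the SA libraries, a difference without overlap (log2 fold change 2.20 ± 0.38 (SE), adjusted p = 0.000347). CCL3 and CCL4, attractants of monocytes, rose by 2.41 and 2.92, CXCL11 by 2.06 and TNF by 0.76. The TNF call was lost without SA 4 (adjusted p = 0.0133), while the other 5 held without any single library. CCL2, the main monocyte attractant, was at 356, 596, 13.5 and 156 in the KO libraries and 1.88, 23.2, 124 and 7.54 in the SA libraries. Both groups ranged widely and overlapped, and CCL2 was not called (log2 fold change 3.17 ± 1.25 (SE), adjusted p = 0.17). IL6 had no read in any of the 8 libraries. CXCL9 was too low to be tested, at 6.41, 9.53, 1.35 and 10.1 in KO and with no read in SA. Of 14 tested NF-κB and feedback genes only DUSP6, a phosphatase of ERK kinases, was called (log2 fold change 1.84 ± 0.43 (SE), adjusted p = 0.00769), and that call was lost in 6 of the 8 fits without 1 library (adjusted p up to 0.0547 without SA 1). In the Toll-like receptor 4 list CD14, the LPS co-receptor, was the 1 called member of 12, at 314, 244, 240.3 and 247 in the KO libraries and 117, 130.4, 103 and 77.3 in the SA libraries (log2 fold change 1.30 ± 0.26 (SE), adjusted p = 0.00153), a call lost without KO 1 or SA 4 (adjusted p up to 0.0115 without SA 4).

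**Figure D3:**
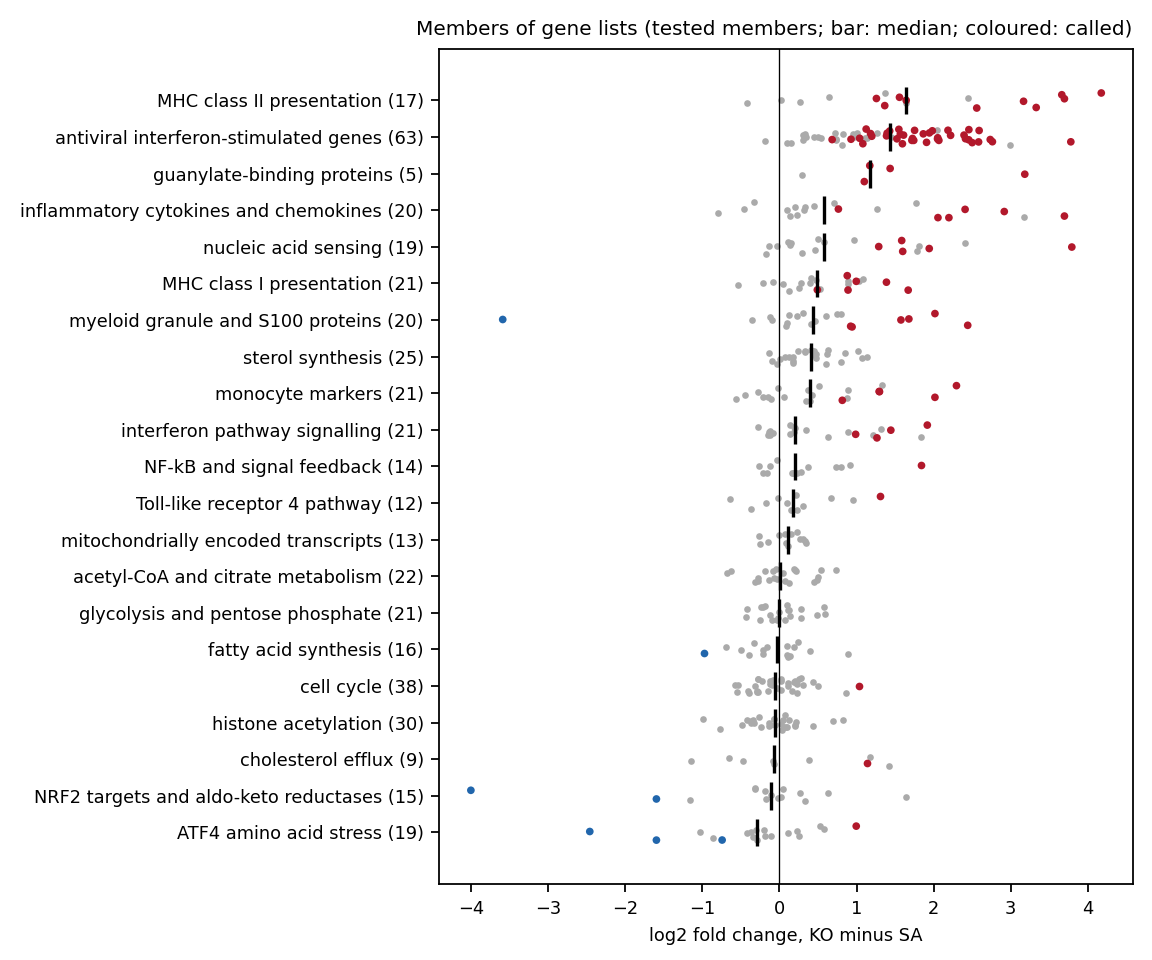
Log2 fold change (KO minus SA, unstimulated) of every tested member of 21 gene lists with at least 5 tested members, ordered by the median, which a black bar marks, with the number tested in brackets. Red and blue points are members called higher and lower in KO, and the medians run from -0.29 for the ATF4 list to 1.64 for MHC class II presentation.

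Myeloid granule and S100 genes had 6 members higher and 1 lower of 20 tested (median 0.43). S100A12, a calcium-binding alarmin, was at 4230.2, 3140.0, 3855 and 3536 in the KO libraries and 716, 689, 588 and 712 in the SA libraries. It had the smallest adjusted p of the named genes, which rests on the spread pooled over the 8 groups (log2 fold change 2.44 ± 0.12 (SE), adjusted p = 1.3e-14). LYZ, lysozyme, was at 17390.2, 26956, 10944 and 18950.2 in the KO libraries and 3365, 4794, 6413 and 3496 in the SA libraries (log2 fold change 2.02 ± 0.34 (SE), adjusted p = 0.00022). S100A8 and S100A9, the chains of calprotectin, rose by 1.58 and 1.68, and both lost the call in some fits without 1 library (adjusted p up to 0.0302 without SA 1 and 0.0158 without KO 3). FCN1, a secreted lectin of monocytes, fell, at 5.13, 0, 0 and 1.84 in the KO libraries and 30.6, 14.3, 18.9 and 36.8 in the SA libraries (log2 fold change -3.59 ± 0.81 (SE), adjusted p = 0.00539), and kept that call in 2 of the 8 fits without 1 library (adjusted p up to 0.0281 without KO 2). The list had 3 to 5 called members, against 7 in the full fit, when single libraries were left out, with 3 without KO 1, KO 2 or SA 4, and 4 without KO 3, SA 1 or SA 2. Among 21 tested monocyte markers 5 rose (CD14, MNDA, LYZ, FCER1G and CD163), and the summed marker level ran from 38192 to 84394 in KO and from 28489 to 48638 in SA, so that the groups overlapped.

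Markers of other cell types were low or absent. None of the T cell, erythroid, epithelial or fibroblast markers reached the count for testing, and all 5 erythroid markers had no read in either group. Summed levels were 6.44 to 17.6 (KO) and 4.38 to 12.3 (SA) for the 7 T cell markers, 3.68 to 12.2 and 2.68 to 3.29 for the 5 epithelial markers, and at most 6.41 and 19.6 for the 5 fibroblast markers. For the 5 B cell markers the sums were 150.0 to 210.6 (KO) and 78.3 to 102.7 (SA), and PAX5, the B lineage factor, was at 124, 152, 113 and 109 in the KO libraries and 28.1, 70.5, 59.2 and 33.9 in the SA libraries (log2 fold change 1.45 ± 0.35 (SE), adjusted p = 0.00983), a call lost in 7 of 8 fits without 1 library (adjusted p up to 0.0572 without SA 1). The 5 NK cell markers summed to 185.3 to 263.1 and 152.9 to 250.7, and NCAM1, the adhesion molecule CD56, fell (log2 fold change -2.96 ± 0.62 (SE), adjusted p = 0.00292), a call lost without KO 2, KO 4 or SA 1 (adjusted p up to 0.0184 without KO 4). The part of other cells in the results was not tested.

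SV2A, a synaptic vesicle glycoprotein, was at 0, 2.12, 0 and 0.920 in the KO libraries and 23.1, 25.0, 20.5 and 29.2 in the SA libraries (log2 fold change -4.01 ± 0.74 (SE), adjusted p = 0.000746). AKR1C2, an aldo-keto reductase that inactivates steroid hormones, was at 5.13, 7.41, 0 and 3.68 in the KO libraries and 64.4, 68.7, 46.9 and 71.7 in the SA libraries (log2 fold change -4.00 ± 0.70 (SE), adjusted p = 0.00037), and its reads may be shared with near-identical AKR1C copies. The amino acid carrier SLC38A1 was at 113, 128, 70.2 and 73.6 in the KO libraries and 463, 554, 691 and 399.8 in the SA libraries, a fall with far higher counts behind it (log2 fold change -2.46 ± 0.25 (SE), adjusted p = 8.69e-08). BEX1, a small adaptor protein best known in neurons, fell by 1.58 on the log2 scale and LPL, lipoprotein lipase, by 1.41. The ephrin receptor EPHB1, the zinc finger gene ZNF462, the peptidase TRHDE and VAT1L were at -2.93, -2.82, -2.63 and -2.58, all kept as called without any single library. KLHL13, ATOH8 and SLITRK5 were called at -3.40, -3.30 and -2.98 with KO means below 5 counts, and lost the call in 5, 6 and 6 of the 8 fits without 1 library (adjusted p up to 0.0221 without KO 2, 0.0245 without SA 2 and 0.0215 without KO 4). NAPA-AS1, an antisense RNA, was at -2.51. Among the steepest rises outside the lists, SLAMF7, a receptor of activated leukocytes, was at 258, 174, 175 and 128 in the KO libraries and 10.6, 17.9, 10.7 and 17.9 in the SA libraries (log2 fold change 3.59 ± 0.26 (SE), adjusted p = 1.25e-10). The cold-sensing channel TRPM8 was at 88.5, 57.2, 111 and 72.7 in the KO libraries and 2.50, 5.36, 3.29 and 11.3 in the SA libraries, and the serine dehydratase SDS at 53.9, 40.2, 22.9 and 25.8 in the KO libraries and 0.625, 0.893, 2.47 and 3.77 in the SA libraries, both without overlap. The cytidine deaminase APOBEC3A and the carrier SLC16A6 were called at 3.84 and 3.40 and lost the call in 7 and 3 of the 8 fits without 1 library (adjusted p up to 0.038 without SA 4 and 0.0177 without SA 4).

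For pathways that use acetyl-CoA, counts of calls stand against 2.93% called of all genes tested. On simulated data the fit recovered 15 of 50 genes changed 2-fold, so an absence of calls does not show an absence of change. None of 22 tested acetyl-CoA and citrate genes was called (median 0.01), and ACSS2, which makes acetyl-CoA from acetate, was at 139.8, 154, 238 and 178 in the KO libraries and 139, 104, 113 and 156 in the SA libraries (log2 fold change 0.45 ± 0.30 (SE), adjusted p = 0.525). Of 16 fatty acid synthesis genes GPAM, the first acyltransferase of glycerolipid synthesis, fell (log2 fold change -0.98 ± 0.22 (SE), adjusted p = 0.0056), a call lost in 6 of 8 fits without 1 library (adjusted p up to 0.0371 without SA 1). FASN was at -0.40 and ACACA, acetyl-CoA carboxylase, at -0.49, neither called (adjusted p = 0.415 and 0.0548). The 25 sterol synthesis genes had 22 positive log2 fold changes and a median of 0.41 with none called, and that median was 0.06 on the deposited scale, 0.22 without SA 3 and 0.25 without KO 3. FDFT1, squalene synthase, was at 0.60 and ACAT2 at 0.54. In the efflux list 1 of 9 members was called, NPC2, a lysosomal cholesterol carrier (log2 fold change 1.14 ± 0.19 (SE), adjusted p = 0.000216), while ABCA1 was at 100.0, 42.4, 22.9 and 26.7 in the KO libraries and 59.4, 144, 80.6 and 95.2 in the SA libraries and not called (log2 fold change -1.14 ± 0.67 (SE), adjusted p = 0.446), and ABCG1 was too low to be tested. No histone acetylation gene of 30 was called (median -0.06), nor any of 21 glycolysis and pentose phosphate genes (median -0.01) or of 13 mitochondrial transcripts (median 0.11), where the acetyl-CoA and mitochondrial medians were -0.35 and -0.25 on the deposited scale. Of 38 cell cycle genes CDKN1A, which encodes the inhibitor p21, was the 1 called (log2 fold change 1.04 ± 0.21 (SE), adjusted p = 0.00178), lost without KO 1 or SA 3 (adjusted p up to 0.0121 without SA 3), and MKI67 was at -0.32 (adjusted p = 0.548). In the ATF4 list SLC38A1, SLC7A11, the cystine carrier, and PHGDH, which opens serine synthesis, fell and the stress factor ATF3 rose, at -2.46, -1.59, -0.74 and 1.00, and the last 3 lost the call in some fits without 1 library (adjusted p up to 0.0123 without SA 3, 0.0378 without SA 4 and 0.0201 without SA 4). AKR1C2 and SLC7A11 were the 2 called of 15 NRF2 targets and aldo-keto reductases.

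A block of lower genes shared a position, which was noticed after the values were seen, and whether they share a pathway was not tested. Over 297 windows of 10 Mb with at least 5 tested genes, the 4 lowest median log2 fold changes were the windows from 0 to 10, 40 to 50, 30 to 40 and 10 to 20 Mb of chromosome 5, at -0.93, -0.92, -0.79 and -0.69, and the medians of all other windows lay between -0.30 and 0.42. Of the 97 tested genes that start in the first 50 Mb of chromosome 5 (GRCh38), 90 were lower in KO, 25 were called lower (25.8%, against 1.27% of all genes tested) and none higher, with a median of -0.79, a ratio of 0.577. Of the 459 genes of the rest of the chromosome 226 were lower and the median was 0.01, and on other chromosomes it was -0.0026. These genes held 0.516 to 0.675% of the reads in the KO libraries and 1.07 to 1.31% in the SA libraries, without overlap. CCT5, a subunit of the cytosolic chaperonin, was at 4453, 4528, 4619 and 4136 in the KO libraries and 8813, 9792, 9626 and 9393 in the SA libraries (log2 fold change -1.08 ± 0.09 (SE), adjusted p = 3.72e-09). PDCD6, a calcium-binding adaptor, was at 960.4, 1178, 972 and 1033 in the KO libraries and 1619, 2243, 2040.1 and 2192 in the SA libraries (log2 fold change -0.96 ± 0.11 (SE), adjusted p = 5.28e-07). The microRNA-processing nuclease DROSHA was at -0.92, the cohesin loader NIPBL at -1.21, the mitochondrial transhydrogenase NNT at -0.72, the ketone body enzyme OXCT1 at -1.54 and the endocytic adaptor DAB2 at -1.31, all called. Leaving out single libraries gave medians from -0.86 to -0.72 and 21 to 28 calls, and leaving out KO 3 and SA 1 together gave -0.80 and 24 calls, while the fit of the 8 libraries alone left the median at -0.79 and called 12 of them lower. In the libraries that share none with this comparison, the same 97 genes had a median of -1.03 in HA minus WT, with 93 lower and 33 called lower, and HA held 0.518 to 0.591% and WT 1.14 to 1.32% of its reads on them. KO minus SA after LPS gave -0.85, and SA minus WT gave -0.05. Without these 25 genes 132 genes were called lower. Whether the number of copies of this stretch differed between the lines was not tested.

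**Figure D4:**
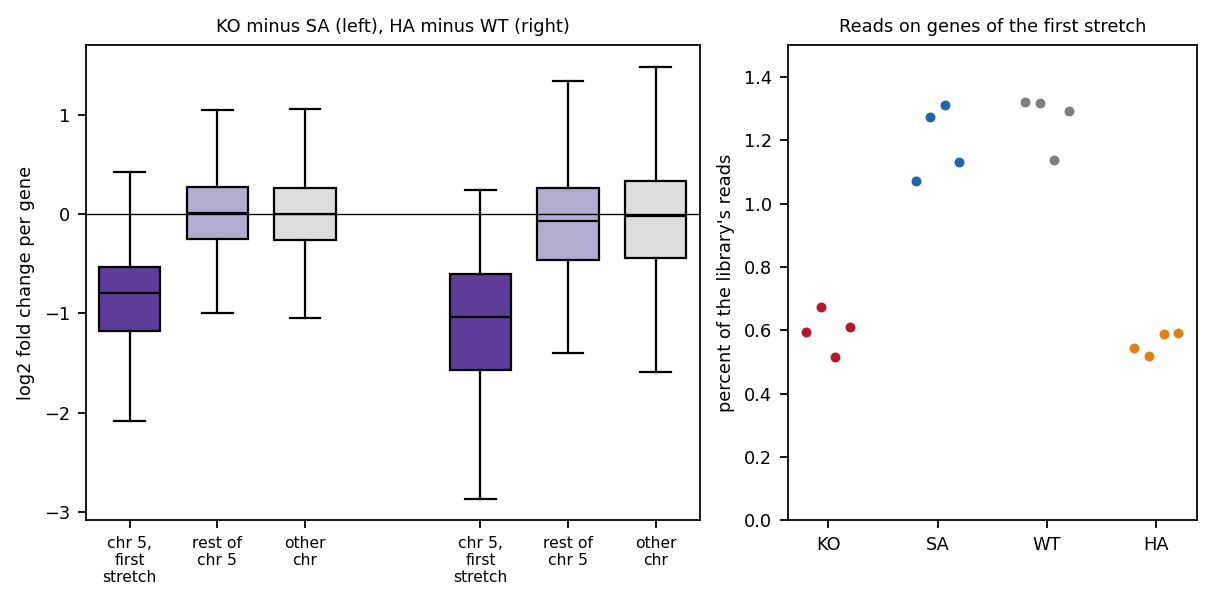
Left, boxes of the log2 fold change per gene (line at the median, box over the quartiles, whiskers to 1.5 times the box, genes beyond them not drawn) for genes that start in the first 50 Mb of chromosome 5, in the rest of chromosome 5 and on other chromosomes, for KO minus SA and for HA minus WT. Right, the percentage of each unstimulated library's reads on the genes of that first stretch, where KO and HA lie between 0.516 and 0.675% and SA and WT between 1.07 and 1.32%.

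HA against WT, unstimulated, compares catalytically inactive with active ACLY and shares no library with KO against SA. It called 312 genes (2.52%), 174 higher and 138 lower in HA, and between 188 and 196 when HA 1, HA 2, WT 1, WT 2 or WT 4 was left out. Of the 362 genes called in KO against SA, 339 (93.6%) had the same sign there, against 55.9% of all genes tested. By direction these were 186 of 205 higher and 153 of 157 lower genes. The lower genes include the 25 called in the first 50 Mb of chromosome 5, whose tested genes had negative medians in both comparisons (-0.79 and -1.03). In both, 152 genes were called in the same direction, which is 42.0% of the first list and 48.7% of the second, with 0 called in opposite directions. All libraries entered 1 fit and 1 scaling, and with separate fits and factors 98.3% of the genes then called had the same sign, while on the deposited scale it was 59.5%. MHC class II members had a median of 1.82 in HA minus WT with 9 called higher, antiviral genes 0.90 with 25, class I genes 0.13 with 1, and cytokines and chemokines 0.13 with 0. S100A12 was at 2.64, HLA-DPA1 at 3.20, SLC38A1 at -2.41 and AKR1C2 at -5.82, all called, whereas IFIT1 was at 1.84 (called), CXCL10 at 1.05 and IL1B at -0.14 (not called). A test of the difference between the comparisons in the same limma fit called 0 genes, with 1567 at an unadjusted p below 0.05, 0 called by voom, and 700 called on the deposited scale and 1240 with library weights, and 1 without HA 1, HA 2, KO 4, SA 1 or SA 4, so a smaller HA minus WT value of a single gene is not shown to differ. Per list, the difference had a median of 0.55 and an unadjusted p below 0.05 for 21 of 63 antiviral members, and a median of 1.90 and 4 of 7 members for the chemokines, against 1567 of 12375 genes, and no list was tested as a whole. The adjusted p of that difference was 0.143 for IFIT1, CXCL10 and IL1B alike.

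**Figure D5:**
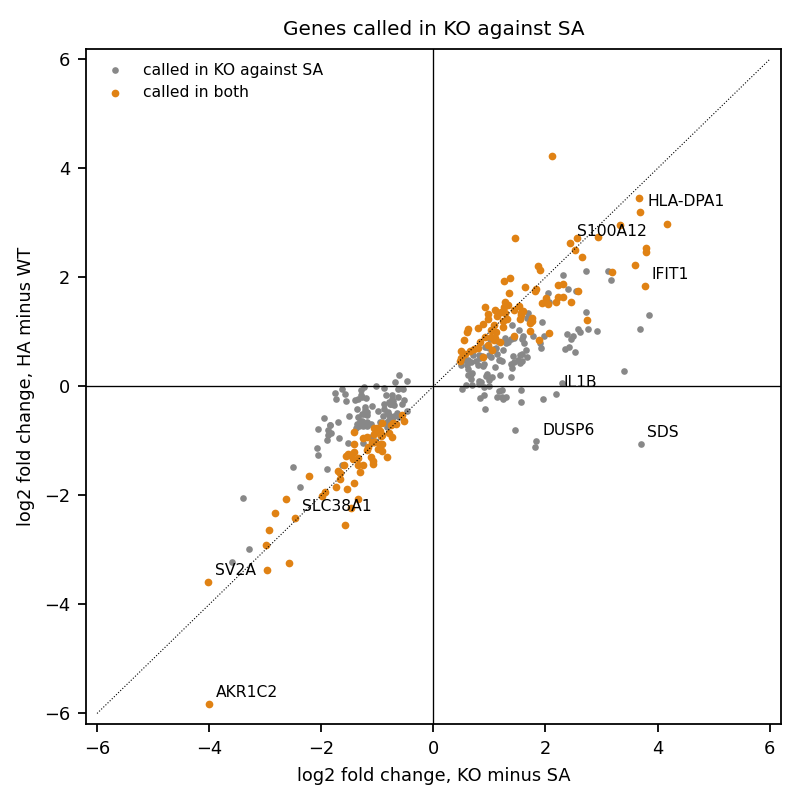
Log2 fold change in HA minus WT against KO minus SA (both unstimulated, no shared library) for the genes called in KO against SA, with a dotted line of equality. Any genes not reported here were not drawn. Orange points were called in both comparisons, and 339 of the 362 genes have the same sign on both axes.

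After LPS, KO against SA called 363 genes (2.93%), 218 higher and 145 lower, in 8 libraries that the unstimulated comparison did not use. Of the 362 genes called without stimulation, 360 had the same sign after LPS and 226 were called again in the same direction (62.4% of the first list and 62.3% of the second), against 68.3% of all genes with the same sign. HLA-DRA was at 3.34, S100A12 at 2.49 and SLC38A1 at -2.31 after LPS, and IFIT1 at 1.51, where it had been 3.78 without stimulation. The test of the LPS by line interaction called 0 genes, with 327 at an unadjusted p below 0.05 and 0 called by voom, and 1 gene was called with library weights and 1 without SA_LPS 1. The medians after LPS were 2.02 for MHC class II and 0.94 for the antiviral list. Without SA_LPS 1 the count after LPS was 338, and the 8 LPS libraries fitted alone called 18 genes.

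SA against WT, which shares the SA libraries with the main comparison, called 0 genes by limma, with 451 at an unadjusted p below 0.05 and 0 called by voom, and 1 without the filter on low counts and 3 with library weights. HLA-DRA averaged 320.2 ± 87.4 in SA and 339 ± 89.7 in WT, S100A12 676 ± 60.1 and 709 ± 85.5, and SV2A 24.5 ± 3.66 and 28.3 ± 9.28 (SD, n = 4 each). GBP1 averaged 45.5 ± 13.0 in SA and 22.9 ± 9.81 in WT (log2 fold change 0.98, adjusted p = 0.998).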

How the data were processed

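Gene expression was measured by QuantSeq 3′ RNA sequencing in 32 libraries of THP-1 cells. Per the labels and the study's methods, the authors trimmed reads with Bbduk, aligned them to GRCh38 with STAR, counted reads per gene with HTSeq-count and deposited DESeq2-normalised counts, 1 table per line and treatment, scaled per line (versions not given in the sources used here). Every deposited value was a whole multiple of 1 step per library within 0.05 reads, so the reads were recovered and rescaled with median-of-ratios factors over all 32 libraries, leaving out 92 spike-in entries. Genes with a mean of at least 10 over the 8 unstimulated KO and SA libraries were tested with limma 3.58.1 (R 4.3.3) on log2(normalised count + 1), in 1 fit of 8 group means with a trended prior, Benjamini-Hochberg adjustment over 12375 genes and a limit of 0.01. This replaced count tests, since the deposited tables use decimal commas and were treated as other than counts. On simulated data for KO against SA the fit recovered 3 of 50 genes changed 1.5-fold and 15 of 50 changed 2-fold. It recovered 38 of 50 changed 4-fold and 46 of 50 changed 8-fold, with 1 false call. A gene that was not called may therefore still differ. The simulated libraries were drawn independently of each other, with the spread of each gene averaged over the groups. They carry no deviation that runs through a whole library, so the false call gives no error rate for the real calls. Members and the 27 gene lists (524 symbols, all matched) were chosen with earlier results of these data known. Named genes were ACLY, the genes the study names, the 12 largest rises and 12 largest falls with non-overlapping libraries, and up to 4 called members of a list in each direction; further list members and the genes of chromosome 5 were named after their values were seen, and some genes are not reported here. No 2 libraries of a group agreed within counting noise (chi-square per gene at least 16.3). Promoter windows came from RefSeq (GRCh38.p14). Alternatives were another pseudocount, filter, scale, limit, set of libraries and the replicate block, and, chosen after seeing the data, voom, library weights, and fits without SA_LPS 1 or without KO 3 and SA 1.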

Additional observations from a re-analysis of the deposited data

Results flagged for a closer look

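In groups of 4, a library was singled out where its gap to the nearest other library was above Dixon's critical value as a share of the range of its group, which chance gives in about 1 of 20 groups. Of the 252 pairs of a gene and a group examined, 15 met this, a share near that chance rate. Of these, 6 were in KO 3, the KO library farthest from the others. In KO 3, IFI16 (4372), HLA-DPA1 (649.2), GAPDH (36080.0), TOP2A (23560.0) and APOBEC3A (47.2) were high and ENO1 (12150.0) was low, in normalised counts. In SA 1, GBP1 (26.3) and GBP4 (52.5) were low and APOBEC3A (10.6) was high, where the other SA libraries had no read. Single values stood apart for IFIT1 in KO 4 (739.7), HLA-F in KO 2 (624.8), CD14 in KO 1 (314.2), EPSTI1 in SA 3 (328.0), PHGDH in SA 4 (921.1) and MPEG1 in SA 4 (249.8). DUSP6 rose in KO against SA (1.84 on the log2 scale), while every HA library lay below every WT library (log2 fold change -1.01), and the test of the difference gave an adjusted p of 0.139 (limma).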

How the results depend on the processing

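For KO against SA, 362 genes (205 higher, 157 lower) became 651 (336, 315) at a limit of 0.05, 120 (80, 40) with both the fit and the factors from the 8 libraries, 1135 (107, 1028) on the deposited scale, 139 (84, 55) in the fit of the 8 libraries alone, 226 (129, 97) without KO 3 and SA 1, 1030 (522, 508) with library weights, and 229 to 315 (127 to 171, 102 to 144) when single libraries were left out. HA against WT went from 312 to 819 at 0.05, 505 on the deposited scale, 195 with its groups alone, 554 without SA_LPS 1, 2617 with library weights and 188 to 283 without single libraries. KO against SA after LPS went from 363 to 763, 1190 and 18 under the first 3 of these settings and 895 with library weights. The LPS interaction was 1 with library weights and 0 to 1 without single libraries. The difference between the comparisons was 2 at 0.05, 1 with a pseudocount of 5, 700 on the deposited scale, 1240 with library weights and 0 to 1 without single libraries, and SA against WT was 1 without the filter and 3 with library weights. The share with the same sign was 59.5% on the deposited scale, 98.3% with separate fits and 91.1 to 96.4% without single libraries. The cause of these moves was not tested. Deviations of same-numbered KO and SA libraries correlated at -0.30, 0.32, -0.57 and -0.03, and whether the numbers mark shared cultures was not tested. For differently numbered libraries the correlations ran from -0.52 (KO 2 with SA 1) to 0.62 (KO 2 with SA 3), with KO 3 and SA 1 at 0.56. With the replicate block over 32 libraries KO against SA was 450 (354 of the 362 genes kept), HA against WT 426 and KO against SA after LPS 442. The difference between the comparisons was then 1. With the block and only the groups compared, KO against SA was 0 (1422 at an unadjusted p below 0.05 by limma), HA against WT 8 and KO against SA after LPS 0. Of the 84 named genes called, 49 kept the call in the fit of the 8 libraries alone, 67 on the deposited scale and 60 to 71 without single libraries, and none reversed. The planned edgeR and DESeq2 tests were not run, and voom on the recovered reads called 353 genes. KO libraries held fewer reads than SA libraries, which limits genes near a mean of 10 counts.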

Other observations

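Some genes known from macrophages, picked after their values were seen, were called in KO against SA, where 2.93% of all genes tested were called. As picked genes they give no share of macrophage genes. In the list of monocyte markers 5 of 21 tested members were called higher and 16 were not called. The median of that list was 0.40 in KO minus SA and -0.18 in HA minus WT. GPNMB, a lysosomal glycoprotein, was at 323, 262, 383 and 216 in the KO libraries and 41.9, 50.9, 41.1 and 66.0 in the SA libraries (log2 fold change 2.54 ± 0.32 (SE), adjusted p = 3.17e-06), and AXL, a receptor for dying cells, at 315, 221, 467 and 282 in the KO libraries and 74.4, 54.5, 41.1 and 83.9 in the SA libraries (log2 fold change 2.32 ± 0.37 (SE), adjusted p = 0.00013). The scavenger receptor MARCO was at 43.6, 39.2, 67.5 and 34.0 in the KO libraries and 13.1, 2.68, 4.93 and 11.3 in the SA libraries (log2 fold change 2.54, adjusted p = 0.00156), and the call was lost without SA 2 (adjusted p = 0.0123). The pore protein MPEG1 rose by 1.00 and the matrix proteoglycan VCAN by 1.40, while LPL, also a macrophage gene, fell (-1.41). CD163 and ADGRE1 were called at 2.30 and 2.61 and lost the call in 4 and 7 of the 8 fits without 1 library (adjusted p up to 0.0223 without KO 1 and 0.0564 without SA 3), and the MPEG1 call was lost without KO 1, KO 2 or SA 4 (adjusted p up to 0.0252 without KO 1). In HA minus WT, MARCO, AXL and LPL were called in the same direction (2.51, 1.88 and -1.77), and GPNMB and CD163 were at 0.63 and 0.07, neither of them called. The difference between the comparisons was not called for either (adjusted p = 0.143 and 0.27, limma).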
